A study of Macaca mulatta with 252 samples.

Results

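ASB5, CD48, CRISPLD1 and NTNG1 are 4 of the 14133 genes measured in laser-captured brain tissue of adult rhesus macaques. They were chosen by measured values of these arrays: their levels in layer 4C of the primary visual cortex (V1) stood above those in the other V1 layers. These V1 levels are therefore a description and carry no test. The members were tested only on arrays from outside V1, which the choice did not use; other genes were also tested in V1. ASB5 and CRISPLD1 were each read by 1 probe set with a single gene symbol, NTNG1 by 2 and CD48 by 4, and the probe set with the highest mean stands for each gene.

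The 225 tissue arrays covered 57 region groups, 54 of them with 4 arrays and 3 with 3. The groups were the layers of 10 cortical areas, the hippocampal fields CA1, CA2, CA3 and dentate gyrus (DG), and the magnocellular, parvocellular and koniocellular divisions of the dorsal lateral geniculate nucleus (LGN). The areas other than V1 were the secondary visual (V2), middle temporal (MT), temporal (TE), primary auditory (A1), primary somatosensory (S1), primary motor (M1), anterior cingulate (ACG), orbitofrontal (OFC) and dorsolateral prefrontal (DLPFC) cortex. Tissue came from 6 animals, males A, B and C and females D, E and F, all adult by the labels, with no exact age or treatment given in the labels used here. Each group holds at most 1 array per animal, so the array replicates are animals. A further 27 control arrays held a whole-brain RNA pool (15 arrays), a CA3 sample of male C (9) and a sample of MT layers 2 to 6 of male C (3). V1 had 32 arrays, 1 for each of 8 layers in females D and E and males A and C. Levels are log2 values, on which 1 unit is a doubling, and the median of all probe sets over the tissue arrays was 4.80.

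Layer 4C is the main target of geniculate axons in primate V1. Its upper part, 4Ca, receives the magnocellular input and its lower part, 4Cb, the parvocellular input. NTNG1 encodes netrin-G1, a lipid-anchored adhesion protein of axons that binds the postsynaptic partner LRRC4C and is known from thalamocortical projections. ASB5 belongs to a family of ankyrin repeat and SOCS box proteins that select substrates for cullin ubiquitin ligases. CD48 encodes a lipid-anchored immunoglobulin-family protein of leukocytes that binds CD2 and CD244. CRISPLD1 encodes a secreted protein with CAP and LCCL domains.

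Layer markers were checked before the members were read. In V1, the upper-layer factor CUX2 lay between 9.88 and 10.46 in layer 2 and between 3.44 and 4.19 in layer 6. The deep-layer factor FEZF2 lay between 8.23 and 8.53 in layer 5 and between 3.36 and 4.48 in 4Ca. In layer 4 of the other areas, CUX2 spread from 4.78 to 9.59 and FEZF2 from 5.37 to 9.42. CUX2 in 4Ca lay between 9.75 and 10.13. The thalamic factor TCF7L2 lay between 12.45 and 12.92 in LGN, above every V1 layer. Each of the 225 arrays was also correlated with the mean profiles of the other animals in its area, and 30 lay closer to another group than to their own. In 4 of these the correlation with their own group was below 0: the libraries labelled A1 layer 3 of male A, DLPFC layer 4 of female D, M1 layer 3 of male C and S1 layer 4 of female D. The library labelled A1 layer 3 of male A had CUX2 at 7.28, against 9.99 to 10.10 in the other 3 animals, and FEZF2 at 9.38, against 4.69 to 5.56. In V1 the library labelled 4B of female D lay closer to 4Cb (r = 0.28) than to 4B (r = 0.05), and the library labelled layer 5 of male C lay closer to layer 6 (0.36 against 0.21). Other V1 libraries of this kind were 4A of males A and C and 4Ca of male A. Tests of the members that use any of the 4 libraries below 0 were also fitted without them. Where a test needs all layers of an area, the other layers of that area and animal dropped out as well.

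ASB5 had its highest levels of all 57 groups in 4Cb, at 9.81 in female D, 10.10 in female E, 9.72 in male A and 9.85 in male C. In 4Ca the same animals stood at 8.44, 9.33, 9.36 and 9.33. The 4Cb and 4Ca arrays did not overlap, and 4Cb was the higher in 4 of 4 animals, by 0.75 ± 0.44 (SD, n = 4), a 1.69-fold difference. Layer 4B held 8.23, 7.96, 6.47 and 6.77, with the highest value in the library of female D that lay closer to 4Cb. Layer 4A lay between 5.70 and 7.72. Layers 2, 3 and 6 lay between 3.60 and 5.74, and layer 5 spread from 3.99 in male A to 7.20 in male C. The difference of layer 4C from the mean of the other 6 layers was 3.78 ± 0.28 (SD, n = 4), or 13.7-fold.

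CD48 also stepped down from 4Cb to 4Ca to 4B. Its 4Cb level was 9.56 in female D, 9.73 in female E, 9.68 in male A and 9.52 in male C, a narrow set. The 4Ca arrays held 8.09, 8.02, 8.87 and 8.37, all below 4Cb, with a difference of 1.28 ± 0.39 (SD, n = 4), or 2.44-fold. In 4B, female D stood at 8.25, above its own 4Ca, while the other 3 animals lay between 6.00 and 6.76, so the 4B and 4Ca ranges overlapped only through female D. That is the 4B library whose profile lay closer to 4Cb. CD48 lay between 5.37 and 7.44 in 4A and between 3.93 and 5.90 in layers 2, 3, 5 and 6. Its layer 4C difference was 3.68 ± 0.51 (SD, n = 4), or 12.8-fold, with the lowest animal, female D, at 2.99 and the highest, male A, at 4.23.

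CRISPLD1, at lower signal, was likewise highest in 4Cb. It stood in 4Cb at 6.76 in female D, 7.77 in female E, 7.43 in male A and 8.22 in male C. In 4Ca the levels were 6.02, 6.07, 6.15 and 6.41, a narrow set below every 4Cb array. The 4Cb level was higher by 1.38 ± 0.49 (SD, n = 4), or 2.61-fold. Its 4B arrays lay between 4.38 and 5.74, with the highest again in female D, and the remaining layers lay between 3.03 and 5.31. Layer 4C exceeded the other 6 layers by 2.53 ± 0.26 (SD, n = 4), or 5.78-fold.

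NTNG1 differed from the other 3 members in that it was also high above layer 4C. In 4Cb it stood at 8.76 in female D, 9.20 in female E, 8.97 in male A and 9.24 in male C, and in 4Ca at 7.89, 8.11, 8.54 and 8.67. The 4Cb arrays lay just above the 4Ca arrays, by 0.74 ± 0.30 (SD, n = 4), or 1.67-fold. Layers 3, 4A and 4B lay between 6.61 and 8.05, and the 4A and 4B ranges overlapped that of 4Ca. Layer 4B exceeded layer 3 in 3 of 4 animals, whereas for ASB5, CD48 and CRISPLD1 it did so in 4 of 4. The lowest V1 layer was layer 6, at 4.24 to 5.08. Layer 4C exceeded the other 6 layers by 2.11 ± 0.21 (SD, n = 4), or 4.33-fold.

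**Figure D1:**
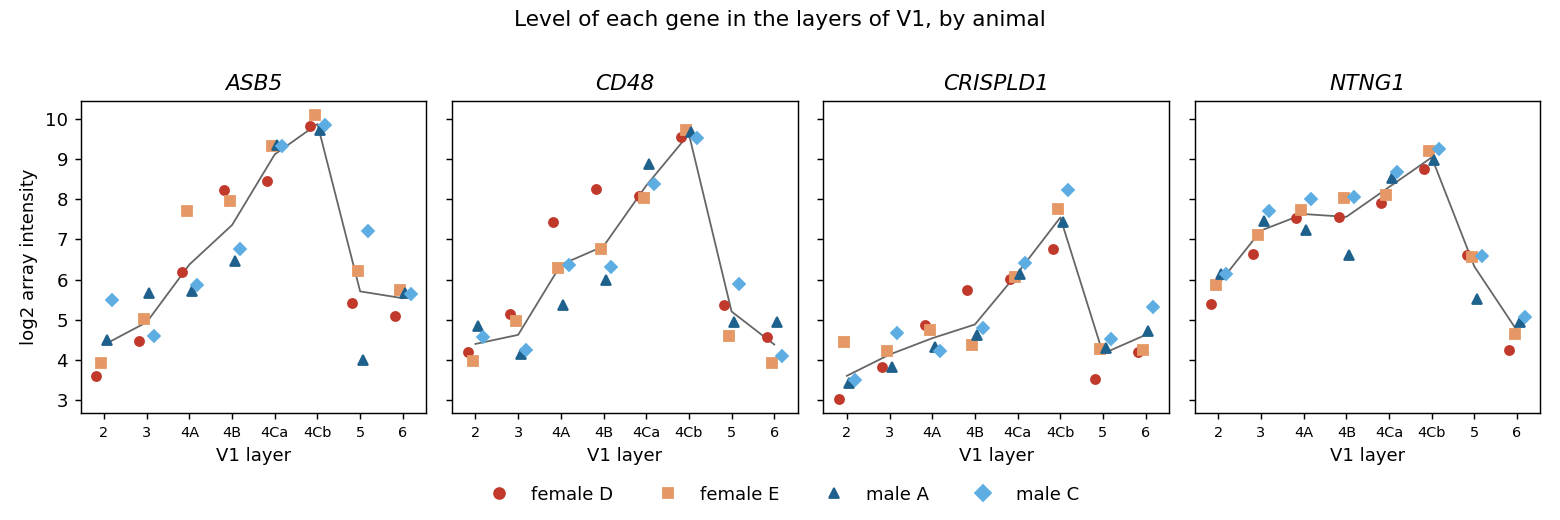
Log2 level of ASB5, CD48, CRISPLD1 and NTNG1 (y axis) in the 8 layers of V1 from layer 2 to layer 6 (x axis); points are single arrays of 4 animals and the line joins the means. In each gene the 4Cb arrays lie highest in 4 of 4 animals, and NTNG1 is already between 6.63 and 7.70 in layer 3.

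Across the 14133 genes ranked by the layer 4C difference, ASB5 stood at rank 3, CD48 at 4, CRISPLD1 at 9 and NTNG1 at 18. Ahead of ASB5 in that order were NHLH2, a neuronal transcription factor gene, at 3.88 and PHLDB2 at 3.80. Over all genes, 1.48% passed an adjusted p of 0.05 (limma) with a log2 change of at least 1 in this contrast. Nothing is read from that share for the members, which the contrast chose. By the difference between 4Cb and 4Ca, CRISPLD1 ranked 68, CD48 90, ASB5 651 and NTNG1 689.

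The position of 4C against layer 4 of other areas was described within each animal. The mean of layer 4 elsewhere was, for ASB5, 4.59 in female D, 5.44 in female E, 4.52 in male A and 5.44 in male C. These means rest on 5 areas in female D, 6 in female E, 4 in male A and 6 in male C. The mean of female D includes the doubted DLPFC and S1 libraries. V1 layer 4C exceeded the layer 4 mean elsewhere by 4.50 ± 0.38 (SD, n = 4), or 22.6-fold. The same difference was 3.84 ± 0.15 for CD48 (14.3-fold), 2.82 ± 0.51 for CRISPLD1 (7.05-fold) and 2.01 ± 0.24 for NTNG1 (4.04-fold). The layer 4 samples elsewhere had a FEZF2 median of 8.19, against 3.94 in 4Ca and 7.15 in 4Cb. Their CUX2 median was 6.80, against 9.84 in 4Ca and 9.70 in 4Cb. The part of deep-layer tissue in those samples was not tested. In ASB5, CD48 and CRISPLD1 every array of layer 4C exceeded every array outside V1, including hippocampus and LGN. The highest array outside V1 was 7.55 for ASB5, 7.29 for CD48 and 5.14 for CRISPLD1, against lowest 4C arrays of 8.44, 8.02 and 6.02. For NTNG1 the highest array outside V1 was 10.55, in LGN.

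Values that move with these layers were recorded beside them. The poly-A control transcripts, which are added before amplification, had levels of 8.94 to 10.09 on the 4C arrays and of 8.55 to 11.10 on the other V1 arrays, so the ranges overlapped. Within 4C they averaged 9.47 in 4Cb (8.94 to 9.98), the lowest mean of the 8 layers, and 10.03 in 4Ca (9.96 to 10.09). Over all V1 arrays they averaged 9.99, against 9.83 in V2 and 8.75 (S1) to 8.88 (TE) in the other areas with a layer 4 array. The part of these technical differences in the member levels was not tested. FEZF2, singled out after its values were seen, lay between 6.32 and 7.67 in 4Cb, above every 4Ca array. NEUROD6, a neuronal transcription factor gene from the excitatory neuron list, was higher in 4Cb than in 4Ca by 2.96 ± 0.32 (SE), with adjusted p = 3.54e-06 (limma), where 0.934% of all genes passed. No other of the 4 measured genes of that list was called between 4Cb and 4Ca. In layer 4C against the other layers, NEUROD6 differed by 0.49, NRGN by 0.22, CAMK2A by 0.00 and SLC17A7 by −0.52, with none called. The part of layer 5 tissue in the 4Cb samples was not tested, and in layer 5 itself CD48 reached at most 5.90, CRISPLD1 4.53, NTNG1 6.62 and ASB5 7.20.

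Because CD48 is known from leukocytes, and ASB genes partly from muscle, markers of those cells were read in the same arrays. None of 12 microglia and macrophage markers and none of 5 measured lymphocyte markers passed the test for layer 4C, with median differences of 0.00 and −0.14 against −0.01 over all genes. Over all genes only 1.48% passed, a share at which lists this short hold few or no passing genes. At an adjusted p of 0.05 alone, which 1255 of 14133 genes reached, 2 of the 12 microglia markers were lower and none was higher. The mean microglia level was 5.50 to 6.19 on 4C arrays and 5.59 to 6.36 on other V1 arrays, and the mean lymphocyte level was 4.36 to 5.01 and 4.52 to 5.17. Of 4 measured smooth and striated muscle markers none passed either, with a median of −0.16, and their mean level was 5.29 to 6.01 on 4C arrays and 5.32 to 6.67 on the others. The part of these cells in the member levels was not tested. In tissue pieces of this kind, more expressing cells and more RNA per cell cannot be told apart.

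The families of the 4 members were read in the same V1 contrast, where 1.48% of all genes passed. At that share, lists this short hold few or no passing genes. Of 10 measured CD2 and SLAM family genes, the relatives and binding partners of CD48, none passed the test, with a median of −0.06. The 15 measured ASB family and cullin 5 ligase genes, the relatives of ASB5, gave none either (median −0.08), as did the 10 CAP domain genes related to CRISPLD1 (median 0.02). The netrin-G family and ligand list of 7 genes also holds the receptor phosphatases PTPRF, PTPRD and PTPRS. In it 1 gene fell and none rose, with a median of −0.12. The gene that fell was PTPRS, a receptor tyrosine phosphatase, by 1.72 on the log2 scale. LRRC4C, the ligand of netrin-G1, was 0.63 ± 0.085 (SE) above the other layers (adjusted p = 6.25e-06), short of the set size of 1. Among 10 netrins and netrin receptors, none passed (median −0.01). Of 9 reference genes of V1 and layer 4, 3 rose: HTR2A, a serotonin receptor, by 1.85 ± 0.21 (SE), RORA by 1.46 ± 0.23 and RORB, a layer 4 nuclear receptor, by 1.03 ± 0.17, with a list median of 0.77. These lists were assembled with earlier results of the series known.

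Over all 57 groups the members fell into different orders outside layer 4C. ASB5 followed 4Cb, 4Ca and 4B (9.87, 9.12 and 7.36) with the dentate gyrus at 6.87 ± 0.48 (SD, n = 4), V1 layer 4A at 6.37 and CA3 at 6.03. The ranges of 4B, dentate gyrus and 4A overlapped, so this part of the order is not resolved. CD48 followed 4Cb, 4Ca, 4B and 4A (9.62, 8.34, 6.83 and 6.37) with the koniocellular LGN at 5.77, and its lowest group was V1 layer 6 at 4.38. CRISPLD1 exceeded the array-wide median of 4.80 in only 4 of 57 groups: 4Cb (7.54), 4Ca (6.16), 4B (4.88) and A1 layer 2 (4.82). NTNG1 was led by the 3 LGN divisions, with 4Cb (9.04) and 4Ca (8.30) next and ACG layer 3 (8.01) close behind. Outside V1 the group means spanned 4.24 to 6.87 for ASB5, 4.61 to 5.77 for CD48, 3.62 to 4.82 for CRISPLD1 and 4.15 to 10.41 for NTNG1.

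**Figure D2:**
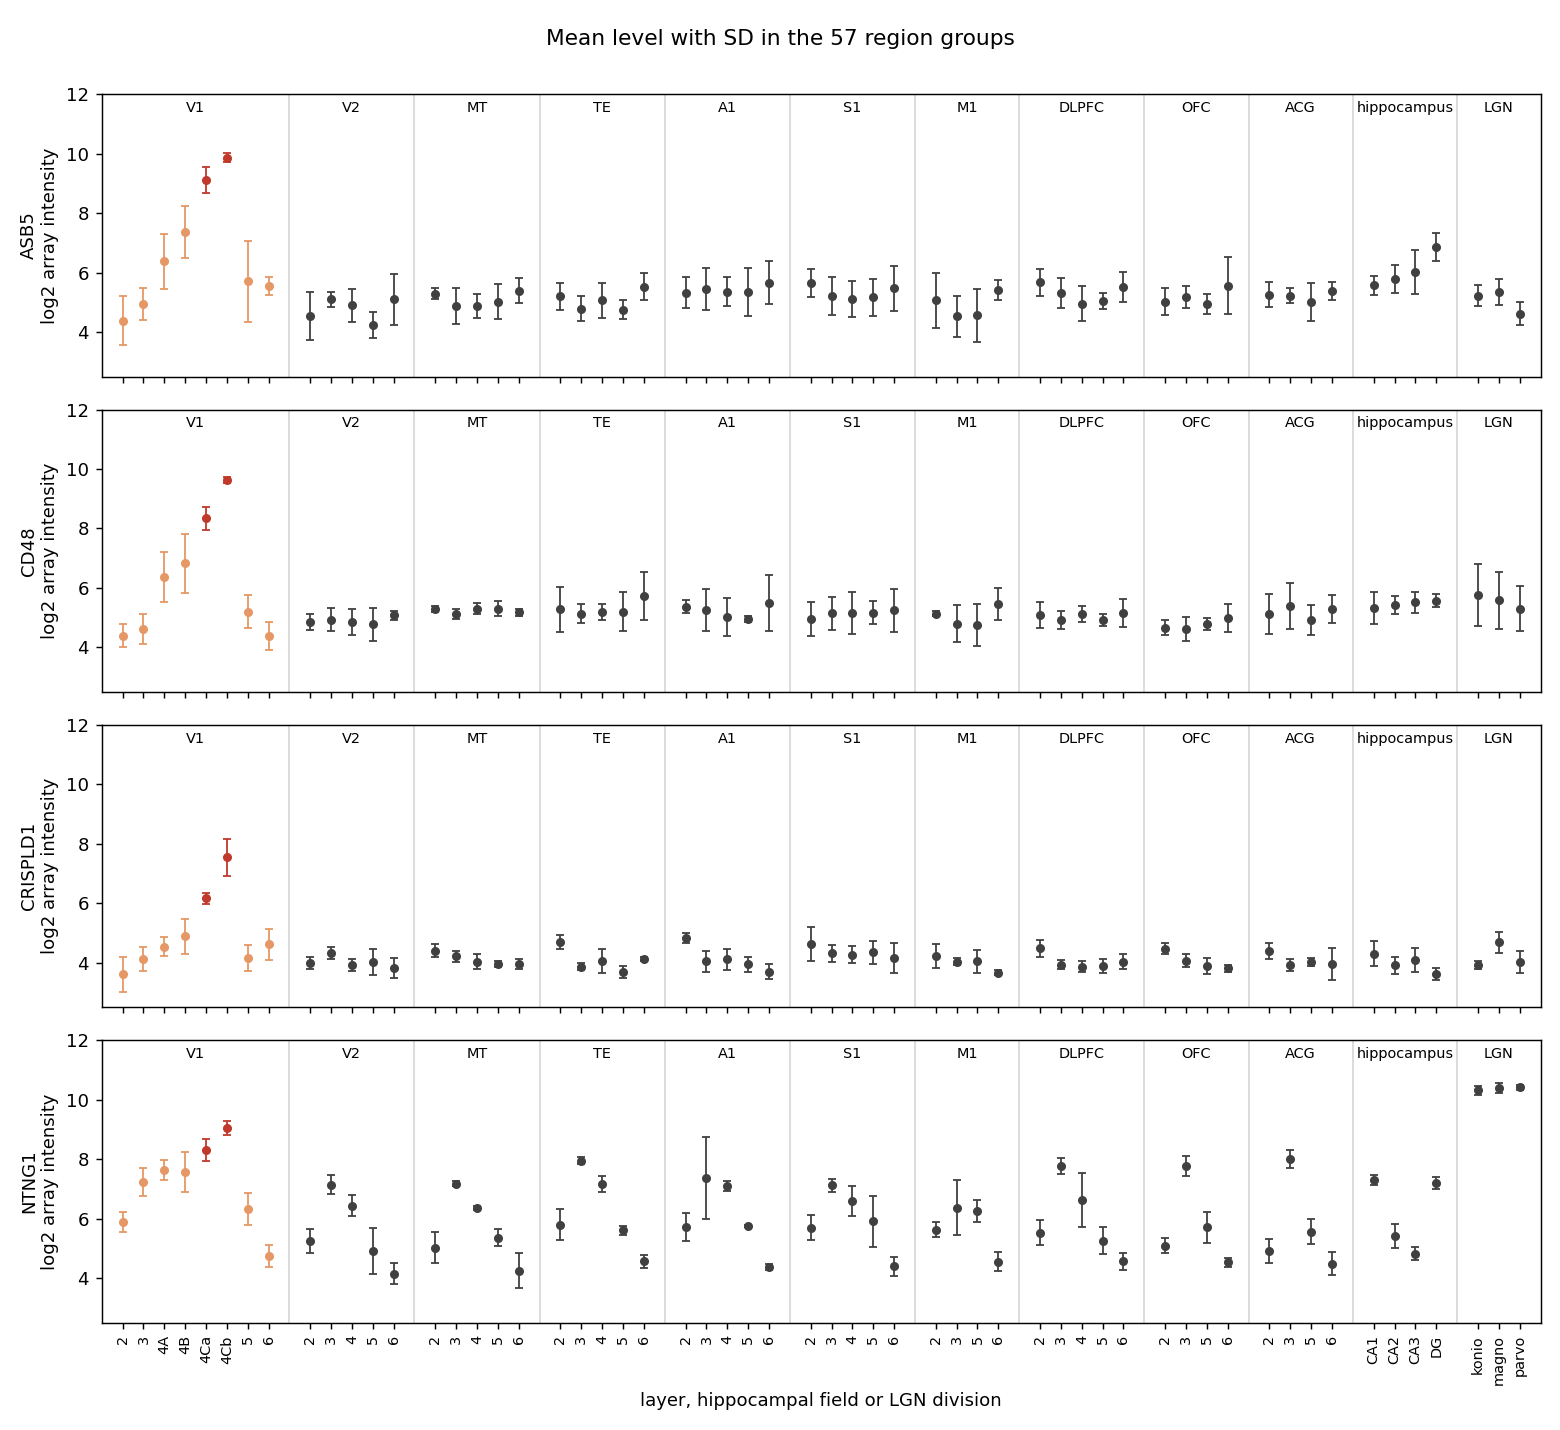
Mean log2 level with SD over 3 or 4 animals (y axis) of each gene in all 57 region groups (x axis), with 4Ca and 4Cb in red and the other V1 layers in orange. For ASB5, CD48 and CRISPLD1 both 4C groups lie above all groups outside V1, and for NTNG1 the 3 LGN divisions lie above 4Cb.

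Layers outside V1 were compared in the 6 areas with an undivided layer 4 (A1, DLPFC, MT, S1, TE and V2), in 4 animals. A gene was called at an adjusted p below 0.05 over all genes (limma) with a range of layer means of at least 1, and 5.18% of genes were called. Of the members, 1 of 4 was called, NTNG1, whose layer means spanned 3.18 (adjusted p = 7.46e-13). CRISPLD1 spanned 0.52 (0.000649) and ASB5 0.54 (0.000748), below the set size, and CD48 spanned 0.22 (0.107). Of the 4 libraries below 0, only DLPFC layer 4 and S1 layer 4 of female D entered this fit. Without DLPFC and S1 of female D these spans were 0.56 for CRISPLD1 (0.000913), 0.65 for ASB5 (0.000218) and 0.31 for CD48 (0.0121). An adjusted p below 0.05 alone was reached by 47.5% of genes. Thus 3 of the 4 genes with a V1 layer 4C difference spanned at most 0.54 over all libraries when averaged over these 6 areas. Spans within single areas could be larger. CRISPLD1 ran from 4.82 in layer 2 to 3.69 in layer 6 of A1, and ASB5 from 5.11 in layer 6 to 4.24 in layer 5 of V2.

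NTNG1 outside V1 was highest in layer 3. Its animal means were 5.13 to 5.83 in layer 2, 7.34 to 7.60 in layer 3, 6.44 to 6.87 in layer 4, 5.18 to 5.71 in layer 5 and 4.07 to 4.42 in layer 6. Layers 3, 4 and 6 did not overlap with any other layer, while layers 2 and 5 overlapped each other. Layer 6 differed from the other layers by −1.97 ± 0.09 (SE), with adjusted p = 1.13e-11, where 0.495% of genes were called as lower. Layer 4 was above the others by 0.96 ± 0.09 (adjusted p = 2.17e-07), just under the set size that 0.283% of genes passed. Without DLPFC and S1 of female D these differences were −1.99 ± 0.07 and 0.99 ± 0.07. The layer 4 samples outside V1 had a FEZF2 median of 8.19, and the part of deep-layer tissue in them was not tested. In V1, layer 6 was likewise the lowest layer, but there the highest layer was 4Cb.

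Area by area, NTNG1 was called in 9 of 9 areas outside V1. The share of all genes called was 7.42% in A1, 5.39% in ACG, 5.47% in DLPFC, 5.26% in M1, 6.49% in MT, 5.39% in OFC, 4.71% in S1, 7.72% in TE and 6.57% in V2. Layer 3 of NTNG1 was called as higher in 8 of 9 areas, all but M1. Of all genes, layer 3 was called as higher for 0.12% in A1, 0.417% in ACG, 0.311% in DLPFC, 0.134% in M1, 0.29% in MT, 0.375% in OFC, 0.0283% in S1, 0.276% in TE and 0.432% in V2. In ACG, layer 3 held 7.70 in female D, 8.06 in female E, 7.89 in male A and 8.39 in male B, and no other ACG array exceeded 5.90. The ACG difference was 3.03 ± 0.12 (SE), with adjusted p = 9.86e-09. In TE the layer 3 arrays lay between 7.79 and 8.07 and the layer 4 arrays between 6.81 and 7.43, both above the other TE layers. Layer 4 was called in TE (1.19 ± 0.14, adjusted p = 3e-05, background 0.637% higher) and in V2 (1.07 ± 0.23, adjusted p = 0.00791, background 0.382% higher).

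Layer 6 of NTNG1 was called as lower in 9 of 9 areas, with differences from −1.48 in M1 to −2.07 in TE. Of all genes, layer 6 was called as lower for 0.92% in A1, 0.884% in ACG, 0.757% in DLPFC, 0.333% in M1, 0.46% in MT, 0.559% in OFC, 0.432% in S1, 0.623% in TE and 0.573% in V2. M1, the motor area without a layer 4 array, held 5.99 in female D, 5.24 in female E, 7.26 in male A and 6.98 in male C in layer 3. These overlapped with its layer 5, at 5.79 to 6.55, and layer 3 was not called there (0.94 ± 0.26 SE, adjusted p = 0.115). Without the library labelled M1 layer 3 of male C the difference was 0.80 ± 0.31 (adjusted p = 0.204).

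The 4 libraries with a correlation below 0 touched the NTNG1 values directly. A1 layer 3 held 7.83, 8.01 and 8.26 in females D and E and male C, but 5.30 in the library labelled male A. The A1 layer 3 difference was 1.77 ± 0.27 (SE, adjusted p = 0.0127) with that library and 2.24 ± 0.14 (adjusted p = 2.76e-06) without it, and A1 layer 4 passed only without it (1.06 ± 0.14, adjusted p = 0.000593, against 1.06 ± 0.31 and 0.0566, background 0.623% higher). DLPFC layer 4 held 7.11, 7.11 and 7.003 in female E and males B and C, but 5.25 in the library labelled female D. Layer 4 of DLPFC was not called with that library (0.84 ± 0.21, adjusted p = 0.0502) and was called without it (1.196 ± 0.17, adjusted p = 0.00121), where 0.425% of genes were called as higher with all libraries. In S1, layer 3 of NTNG1 was higher by 1.47 ± 0.25 (adjusted p = 0.025) with, and by 1.51 ± 0.25 (adjusted p = 0.0113) without, the S1 layer 4 library of female D. Layer 6 without them differed by −2.19 in A1, −1.83 in DLPFC, −1.44 in M1 and −1.895 in S1, each still called. Without all 4 libraries NTNG1 remained called in 9 of 9 areas. Its layer range over areas, without DLPFC and S1 of female D, was 3.22 (adjusted p = 8.51e-14).

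**Figure D3:**
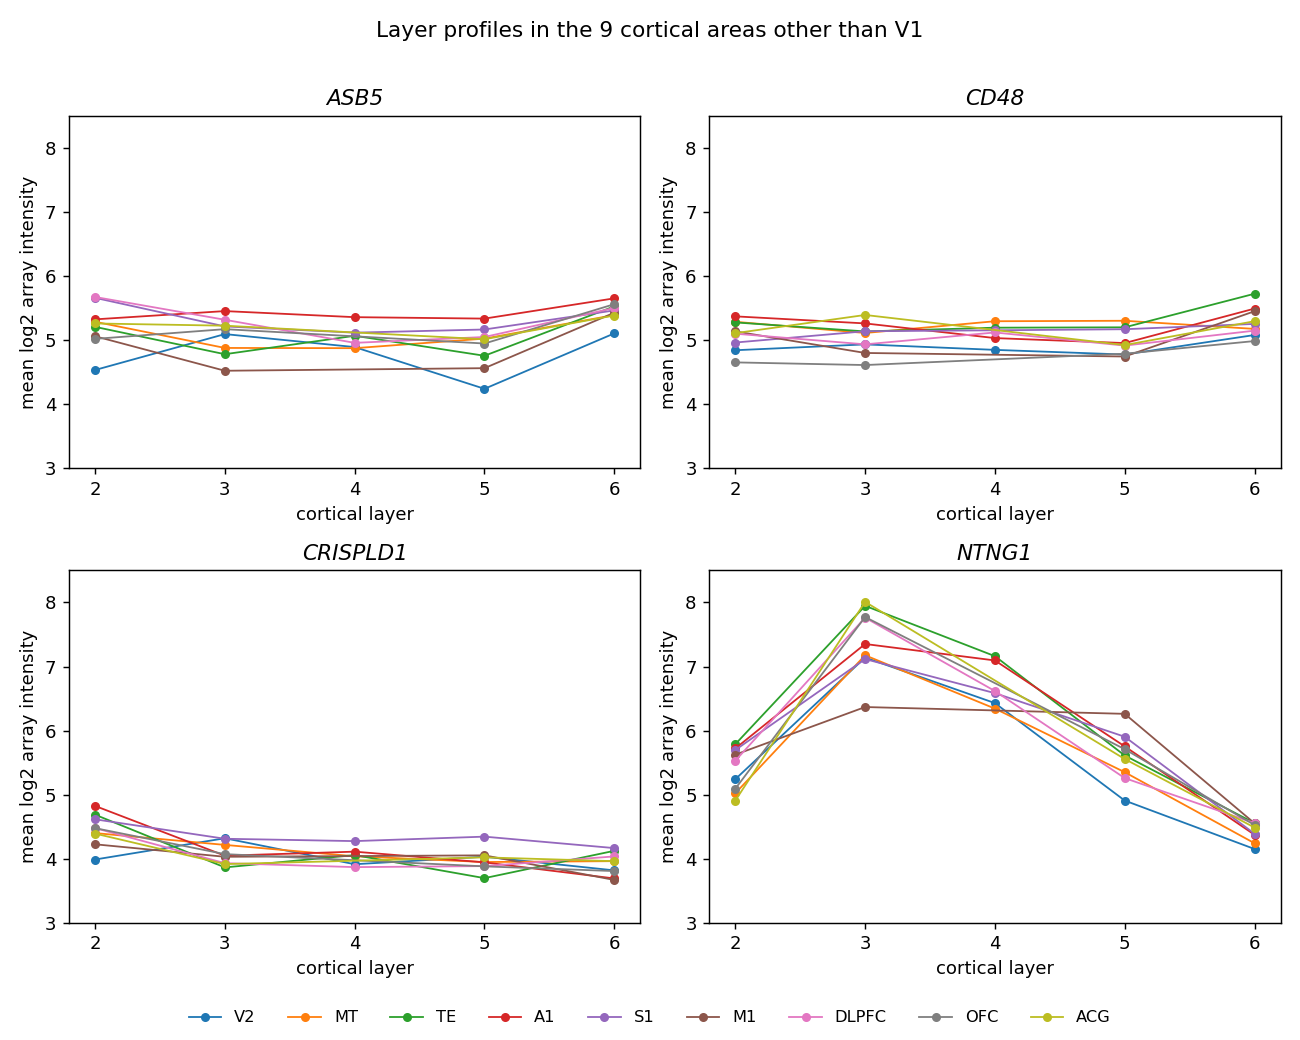
Log2 level of each gene (y axis) by layer (x axis) in the 9 cortical areas other than V1, as means over 3 or 4 arrays; lines join layers 3 and 5 directly in ACG, OFC and M1, which have no layer 4 array. NTNG1 is highest in layer 3 in 9 of 9 areas, in M1 close to layer 5, while CD48 stays between 4.61 and 5.73.

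CRISPLD1 was called in 1 area outside V1, A1, with a layer range of 1.13 (adjusted p = 0.00498, 7.42% of genes called there). Its A1 layer 2 arrays held 4.84 in female D, 5.04 in female E, 4.79 in male A and 4.62 in male C, and its layer 6 arrays 3.64, 3.37, 3.79 and 3.96. Layer 2 lay above every A1 array of the other layers, and without the library labelled A1 layer 3 of male A the adjusted p was 0.00292. In TE its layer range was 0.99 (adjusted p = 0.000489), just below the set size. In V1 layer 2, by contrast, CRISPLD1 had its lowest mean of all groups, 3.60, with arrays from 3.03 in female D to 4.45 in female E. Dentate gyrus (3.62) and M1 layer 6 (3.67) lay close to it, so that rank is not resolved. ASB5 and CD48 were called in none of the 9 areas.

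Layer 4 was then set against layers 2, 3, 5 and 6 within each area, and the difference compared among the 6 areas. This interaction was called for 0.927% of genes and for none of the 4 members, whose adjusted p lay between 0.251 (ASB5) and 0.929 (CD48). For NTNG1 the layer 4 difference ran from 0.81 in S1 to 1.19 in TE (adjusted p = 0.582 for the interaction). Without DLPFC and S1 of female D it ran from 0.64 in S1 to 1.196 in DLPFC (adjusted p = 0.171).

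Areas were compared by the mean of layers 2, 3, 5 and 6, where 5.34% of genes were called and no member was. NTNG1 spanned 0.62 (adjusted p = 0.000369) and ASB5 0.73 (0.00438) over the 9 areas, both below the set size. Both were lowest against the rest in V2, by 0.40 ± 0.09 (SE) for NTNG1 and by 0.48 ± 0.11 for ASB5. Low values in V2 were common: 5487 of 14133 genes had an adjusted p below 0.05 there (limma), and 72 of 76 called genes were lower. The poly-A control transcripts averaged 9.83 in V2, against 8.47 (OFC) to 9.33 (ACG) in the other areas outside V1. The part of such technical differences was not tested. CD48 spanned 0.43 (adjusted p = 0.2) and CRISPLD1 0.40 (0.0968). Of the 4 libraries below 0, only M1 layer 3 of male C entered this fit. Without M1 of male C the spans were 0.62 for NTNG1 (0.000687), 0.73 for ASB5 (0.00566), 0.43 for CD48 (0.229) and 0.498 for CRISPLD1 (0.0524).

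Between structures, NTNG1 was the member that set LGN apart. The 12 LGN arrays lay between 10.11 and 10.55, and no array elsewhere exceeded 9.24. The koniocellular arrays held 10.42 in female D, 10.32 in female E, 10.42 in male A and 10.11 in male C, the magnocellular arrays 10.40, 10.14, 10.55 and 10.44, and the parvocellular arrays 10.31, 10.44, 10.41 and 10.48. The 3 divisions overlapped fully, and their means spanned 0.09 (adjusted p = 0.969, limma). Per animal, LGN averaged 10.37 ± 0.07 (SD, n = 4), hippocampus 6.18 ± 0.12 and cortex outside V1 5.71 ± 0.15. Cortex, here and in all structure comparisons below, is the mean of the layers used to compare areas. It leaves out layer 4 as well as V1. For NTNG1, layer 4 averaged 6.66 in the areas outside V1 that have it, above this cortex mean. LGN exceeded cortex by 4.66 ± 0.08 (SE), or 25.3-fold (adjusted p = 9.3e-12), where 8.43% of genes were called. It exceeded hippocampus by 4.19 ± 0.08, or 18.3-fold (adjusted p = 1.31e-11), where 11.2% were called, a comparison that shares the LGN samples with the first. Without M1 of male C, the only area that the 4 libraries below 0 touched here, the difference from cortex was 4.67 ± 0.08 (adjusted p = 8.39e-12).

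The other members did not share this. CD48, ASB5 and CRISPLD1 differed between LGN and cortex by 0.42, −0.09 and 0.09 (adjusted p = 0.0931, 0.28 and 0.446). In the koniocellular LGN, CD48 stood at 7.29 in male A and at 4.91 to 5.47 in the other 3 animals, and in the other divisions male A was again alone at 7.01 and 6.37 against 4.74 to 5.25. Of the 2 measured thalamic relay markers, TCF7L2 spanned 12.45 to 12.92 over the 12 LGN arrays. PRKCD differed from cortex by −0.58 ± 0.10 (SE, adjusted p = 0.000421, limma), short of the set size. No member was called among the 3 LGN divisions, where 0.304% of genes were. CRISPLD1 was higher in the magnocellular division, which held 5.05, 4.50, 4.90 and 4.27 in females D and E and males A and C, but by 0.70 ± 0.15 (SE, adjusted p = 0.0476), below the set size.

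The netrin-G list, with its receptor phosphatases, was also compared between LGN and cortex, again without layer 4. Of its 7 genes, 4 were lower in LGN than in cortex and none was higher, with a median of −1.41 against 0.02 over all genes. Of all 14133 genes, 736 were called as lower and 456 as higher. LRRC4C, which encodes the ligand of netrin-G1, fell by 2.22 on the log2 scale, LRRC4 fell by 2.13, PTPRS fell by 1.73 and PTPRF fell by 1.41. PTPRD stood 0.49 ± 0.10 (SE) above cortex (adjusted p = 0.002), short of the set size, and LRRC4B differed by −0.03 (0.771). Against hippocampus, 4 of 7 were lower and PTPRD alone was higher, by 1.37 ± 0.10 (SE, adjusted p = 5.74e-07, limma). There, 867 of all 14133 genes were called as lower and 715 as higher. NTNG2, the paralog of NTNG1, was lower than in hippocampus and short of the set size against cortex (−0.90, adjusted p = 8.01e-06). The arrays measured RNA of the captured tissue only.

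In the hippocampus 15% of genes were called over the 4 fields, and 2 of the 4 members were, NTNG1 and ASB5. NTNG1 had 2 high and 2 low fields. CA1 held 7.50 in female D, 7.14 in female E, 7.21 in male A and 7.34 in male C, and the dentate gyrus 7.21, 7.48, 7.09 and 6.98. CA2 held 5.69, 5.36, 4.86 and 5.70, and CA3 4.51, 5.00, 4.83 and 4.94. Every CA1 and dentate array exceeded every CA2 and CA3 array by more than 1 unit, while the 2 high fields overlapped each other. Against the mean of the other 3 fields CA1 was higher by 1.49 ± 0.14 (SE, adjusted p = 2.72e-06, background 2.71%) and the dentate gyrus by 1.35 ± 0.14 (1.45e-06, background 7.97%). CA3 was lower by 1.81 ± 0.14 (6.58e-07, background 2.22%) and CA2 by 1.03 ± 0.14 (8.92e-05, background 2.14%). The CA2 difference was −0.98 without female E and −0.87 without male A, short of the set size.

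ASB5 in the hippocampus was highest in the dentate gyrus, the granule cell field, at 6.74 in female D, 6.74 in female E, 6.43 in male A and 7.55 in male C. Within each of these animals the dentate level was the highest of the 4 fields, although male C's CA3 (6.90) exceeded the dentate gyrus of the other 3. The difference was 1.07 ± 0.16 (SE, adjusted p = 4.76e-05). It was short of the set size without female D (0.91). Hippocampus exceeded cortex, again without layer 4, by 0.90 ± 0.07 for ASB5 (adjusted p = 2.34e-06, 4.37% of genes called), also below the set size. The ASB5 difference between LGN and hippocampus, −0.999, lay just short of it. CRISPLD1 spanned 0.69 (adjusted p = 0.0338) and CD48 0.25 (0.553) over the fields. PTPRS, the receptor phosphatase that fell in V1 layer 4C, was the only gene of the netrin-G list called in the dentate gyrus, higher by 5.45 ± 0.16 (adjusted p = 5.15e-12).

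**Figure D4:**
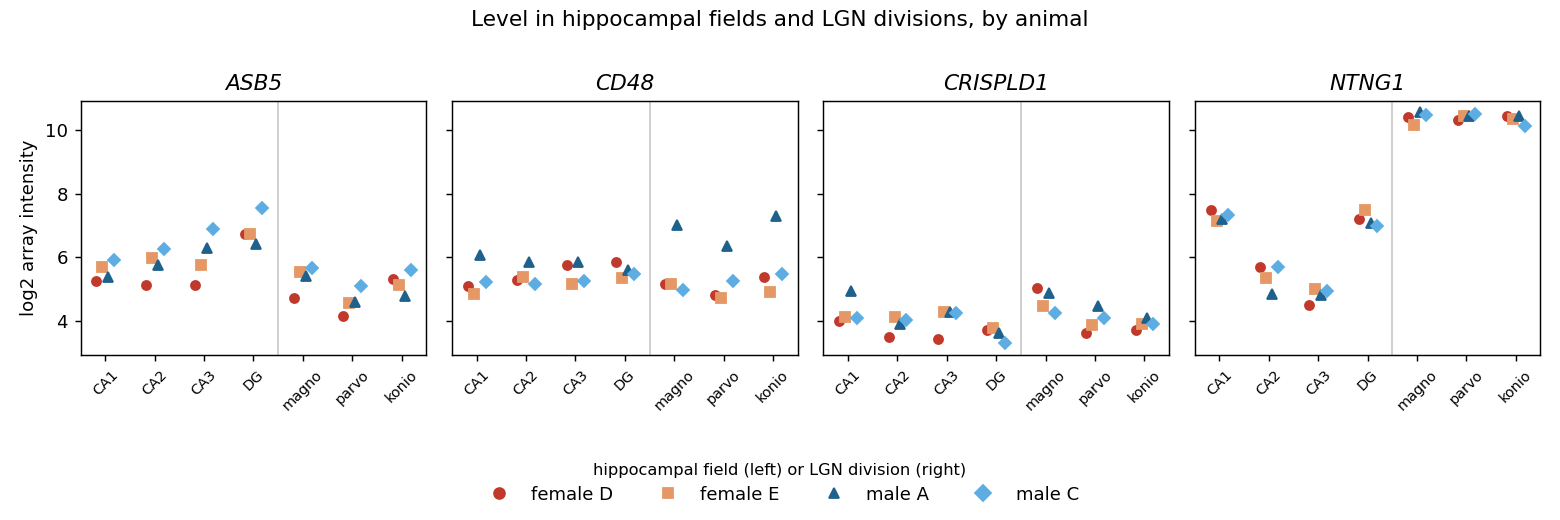
Log2 level (y axis) of each gene in the 4 hippocampal fields and the 3 LGN divisions (x axis), 1 point per animal. NTNG1 lies between 10.11 and 10.55 in LGN and splits the hippocampus into CA1 and DG above CA2 and CA3, and CD48 of male A stands above the other animals in each LGN division.

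The control arrays were read beside the tissue arrays. Over 9 control arrays of CA3 from male C, NTNG1 stood at 6.57 ± 0.09 (SD), between 6.42 and 6.71, against 4.94 in that animal's own CA3 tissue array. ASB5 stood at 5.76 ± 0.34, between 5.37 and 6.26, against 6.90. The NTNG1 difference of −1.63 lay at percentile 1.25 of all genes and the ASB5 difference of 1.14 at percentile 97.3. CD48 and CRISPLD1 differed by 0.06 and 0.36. The control NTNG1 level thus lay between the low CA2 and CA3 arrays and the high CA1 and dentate arrays of the tissue series, and what differed between the control RNA and the tissue sample is not given in the labels. In the whole-brain pool, which served to scale the amplification batches to each other, the members stood at 4.98 (ASB5), 6.38 (CD48), 4.47 (CRISPLD1) and 6.97 (NTNG1), below layer 4C in each case.

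Animals differed in overall level for ASB5 and CD48. Over 28 groups outside V1 shared by females D and E and males A and C, ASB5 averaged 4.82, 5.26, 5.02 and 5.795. Its range over animals was 0.98, and 0.771% of genes had a larger one. CD48 averaged 5.20, 4.87, 5.90 and 4.94, a range of 1.03 that 0.679% of genes exceeded. CRISPLD1, with 0.06, and NTNG1, with 0.33, were nearer to the median range of 0.16. The high animal was male C for ASB5 and male A for CD48, and neither was the highest for the other gene.

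The animal difference in CD48 depended on the probe set. In 4Cb, the chosen probe set, MmuSTS.3488.1.S1_s_at, lay between 9.52 and 9.73 in 4 animals, and MmugDNA.14375.1.S1_at between 8.07 and 8.36. MmuSTS.3488.1.S1_at instead held 8.73 in female D and 8.92 in male A, but 4.46 in female E and 3.42 in male C. Its layer 4C difference was 3.80 and 4.61 in the first pair and 1.41 and 0.22 in the other. MmuSTS.3488.1.S1_x_at stood in between, with 4C differences of 1.77 to 4.28. The same pair of animals was high on MmuSTS.3488.1.S1_at in LGN, where male A lay between 6.63 and 7.62, female D between 4.51 and 5.85, and the others between 2.84 and 3.05. A positive 4C difference was present for each of the 4 probe sets in 4 of 4 animals, and its size differed by animal most for MmuSTS.3488.1.S1_at.

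NTNG1 also depended on its probe set. MmugDNA.10947.1.S1_at, the one not used, had V1 layer means of only 3.93 to 4.46 and 4C differences of 0.81, 0.33, −0.12 and −0.40 in females D and E and males A and C. In LGN it rose to means of 5.22 to 5.94. On that probe set the layer range outside V1 was 0.18 (adjusted p = 0.381) and the hippocampal range 0.49 (adjusted p = 0.0549). The NTNG1 layer and hippocampal values above therefore rest on 1 probe set, and which transcripts each probe set reads was not tested.

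**Figure D5:**
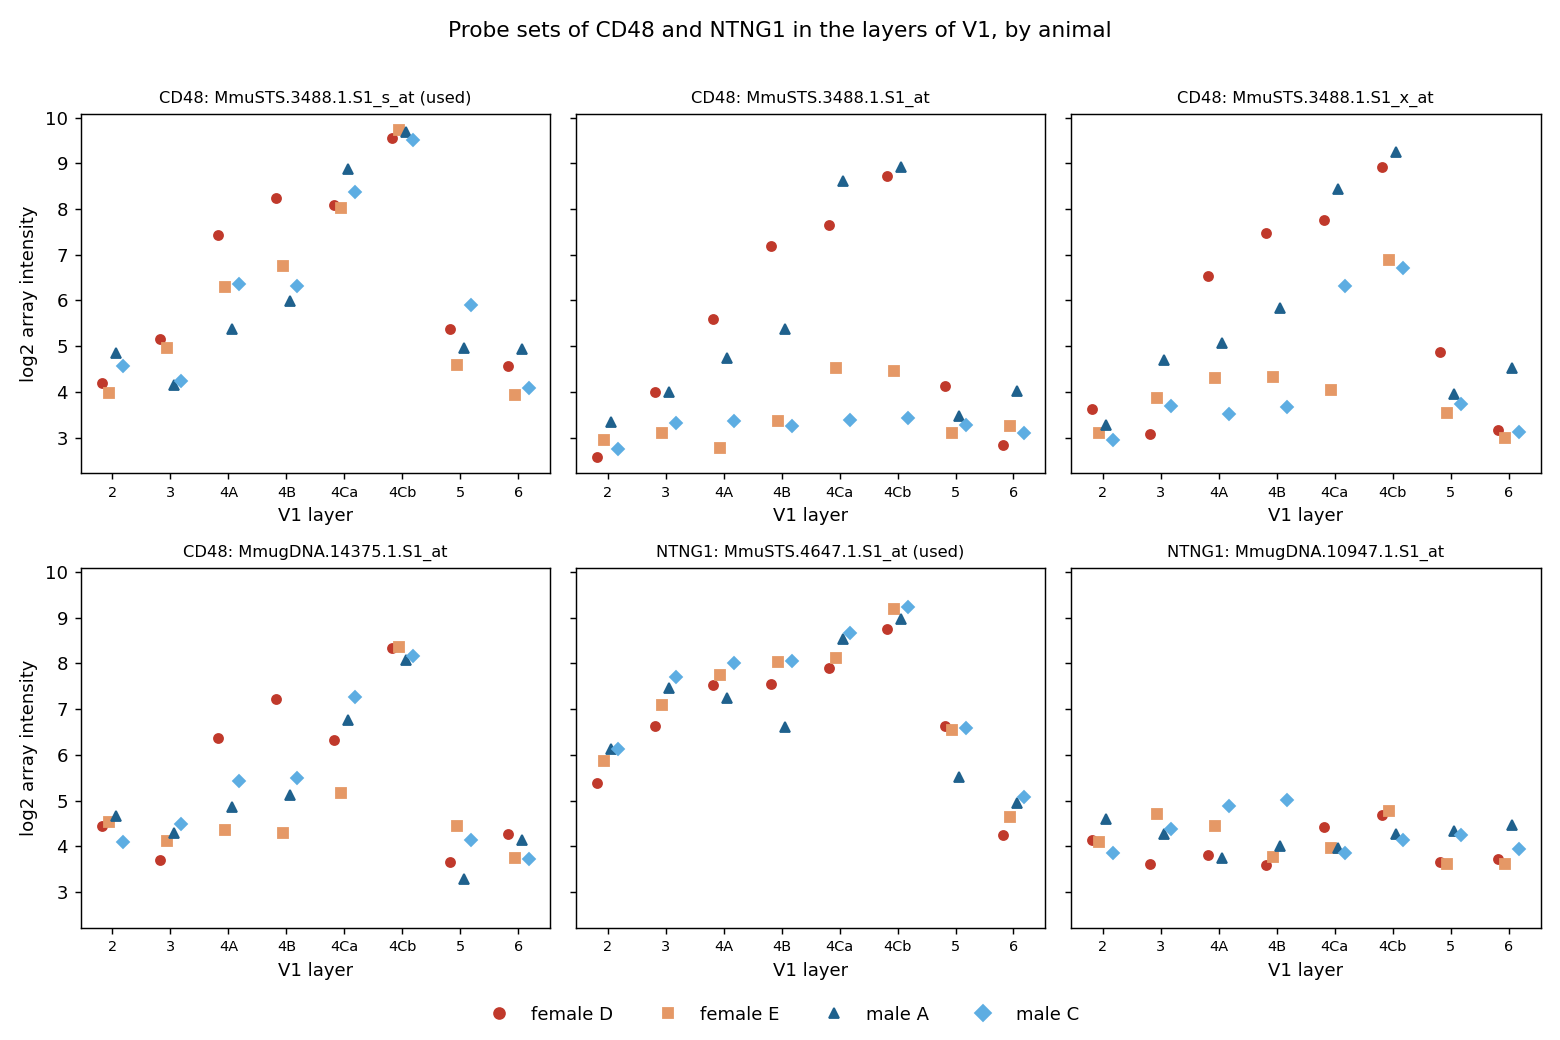
Log2 level (y axis) of the 4 probe sets of CD48 and the 2 of NTNG1 in the 8 layers of V1 (x axis), with 1 point per animal. The CD48 probe sets MmuSTS.3488.1.S1_at and MmuSTS.3488.1.S1_x_at separate female D and male A from female E and male C in 4Cb, and the layer means of the second NTNG1 probe set lie between 3.93 and 4.46.

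The likeness of the members to each other was described by correlations of group means, which share arrays and animals. Over the 8 V1 layers ASB5 and CD48 had r = 0.98, ASB5 and CRISPLD1 0.955, CD48 and CRISPLD1 0.935, and NTNG1 0.735 to 0.88 with the other 3. Over the 49 groups outside V1 the same pairs had r of 0.532, −0.00622 and −0.0278, and NTNG1 had −0.127 to 0.166. The members thus followed each other in V1, where they were chosen, and apart from ASB5 and CD48 not outside it. The 57 groups include the 4C levels by which the members were chosen, so likeness among members there partly follows from that choice. Over all 57 groups the gene most like ASB5 was CD48 (0.913), followed by MMP3 (0.827), a matrix metalloproteinase gene highest in 4Ca. MMP3 was also next after ASB5 for CD48 (0.834) and next after CD48 and ASB5 for CRISPLD1 (0.79), and ABI3BP, highest in 4Cb, was in the list of each of the 3 (0.723 to 0.777). The genes most like NTNG1 were FAM20A (0.836), OSBPL2 (0.797) and SMPX (0.792), all highest in an LGN division. Outside V1 the gene nearest to ASB5 was STON2 (0.787, highest in dentate gyrus), to CD48 SMIM30 (0.725) and to CRISPLD1 TGFBR3 (0.74, highest in A1 layer 2), while FAM20A stayed nearest to NTNG1 (0.82).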

How the data were processed

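The deposited file held log10 values per probe set. Per the file headers, the authors ran RMA in Matlab separately for each amplification batch, and brought the batches together probe by probe through whole-brain controls present in all of them, so levels in the pool and batch shifts are set by that step. The design had foreseen log2 values, so the deposited log10 values were multiplied by 3.32, the log2 of 10. The labels give 5 ng of RNA input with 2 rounds of amplification, which can weaken low signals, and the 3 amplification batches are named without saying which array was in which, so what batch effect remained was not tested. Of 52865 probe sets, 24969 carried a single gene symbol, 361 several and 27535 none, and the highest-mean probe set stood for each of 14133 genes. No level filter was used, so all 4 members were tested. Control arrays entered no test.

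Tests used limma 3.58.1 in R 4.3.3, with the package data.table in version 1.17.8: lmFit and eBayes with animal as a fixed block, Benjamini-Hochberg over all genes, called at an adjusted p below 0.05 and a log2 change of at least 1. The animal pairs the samples, since arrays of 1 animal come from the same individual: their deviations from group means correlated at a median r of 0.134, against −0.0379 between animals. Genes named are the members, up to 4 called genes of each list, and 5 nearest genes per member by correlation. Members and lists were chosen with earlier results of these data known. The fits were tested on simulated data with 200 changed genes before use. Alternatives were no block, a level filter, the mean of all probe sets, quantile normalization, areas with a narrow or wide spread of hybridisation controls, and each animal left out. Added after seeing the data were the second probe set of CD48 and NTNG1 and the removal of the 4 arrays whose correlation with their own group was below 0. An array signal has no read depth; precision here is limited by the 3 or 4 arrays per group.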

Additional observations from a re-analysis of the deposited data

Results flagged for a closer look

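In 15 of 216 groups of 4 arrays (a member in a region group), 1 array lay far from the other 3 relative to the group's range, where chance alone gives about 1 in 20. For NTNG1 these were the libraries labelled A1 layer 3 of male A (5.30) and DLPFC layer 4 of female D (5.25), both closer in profile to another layer than to their own, and V1 layer 5 of male A (5.52). For ASB5 they were layer 6 of male C in M1 (5.93), TE (6.21) and V2 (6.38), all high, and 2 low arrays of female D in V1, 4Ca (8.44) and layer 6 (5.08). For CD48 both were high arrays of male A, in the magnocellular LGN (7.01) and in S1 layer 4 (6.21). For CRISPLD1 they were DLPFC layer 2 of female E (4.92), CA1 of male A (4.94), CA3 of female D (3.47), TE layer 3 of male C (3.69) and V2 layer 5 of male C (4.68), all near the array-wide median or below it. Male C was the highest animal for ASB5 and male A for CD48 over the groups outside V1 as well. The cause of these departures was not tested.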

How the results depend on the processing

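Of 233 tested member values under alternatives that kept every animal, 218 kept their direction and side of the threshold, as did 165 of 172 with 1 animal left out. These counts are a weak check. The ranges among them have no direction to change, and many of the values were not called in the main fits either. Most exceptions came from the probe set. On the second probe set of NTNG1 the layer range outside V1 was 0.18, the layer 6 difference 0.0076, the hippocampal range 0.49, the CA2 difference 0.26 and the dentate difference −0.36; the V1 layer 4C differences were 0.15 for NTNG1 and 2.77 for CD48, or 1.13 and 3.03 with the mean of all probe sets. The replicate block changed no call on a member; without it, 6 genes instead of 43 were called among LGN divisions, and 24 with the mean of all probe sets (16 to 49 with 1 animal left out, lowest without female E). Genes called for the layer 4 difference across areas went from 131 to 0 in either the narrow or the wide areas alone and to 0 to 171 with 1 animal left out (0 without female E, 4 without male C, 83 without male A). Genes called between areas went from 755 to 444 with the mean of all probe sets, 300 in the narrow and 151 in the wide areas. With 1 animal left out, the LGN minus hippocampus difference of ASB5 was −1.05 to −0.93 (−1.0017 after quantile normalization, now past the set size), that of CD48 −0.23 to 0.24, and the LGN minus cortex difference of CRISPLD1 −0.011 to 0.144, both changing sign without male A. CRISPLD1 was called in 1 to 2 areas outside V1, 2 without male C. Fewer areas, animals or probe sets enter these fits, and the causes were not tested further. Low signals limit CRISPLD1 most: under a level filter it passed only in V1, where members carry no test, so no test of it was left. Its V1 mean of 4.96 passed the filter of 4.75, while its mean over the 6 layers outside 4C was 4.32.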
